A study of Mus musculus with 19 samples.

Results

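The genes described here are 10 markers that separate the fields of the hippocampus and a neighbouring tissue: Wfs1 and Fibcd1 for CA1, Prox1, Dsp and C1ql2 for the dentate gyrus, Rgs14, Amigo2, Bok and Iyd for CA2 and CA3, and Tcf7l2 for the thalamus. They were taken by symbol from the gene annotation, each matched 1 row of the count files, and they are 10 of the 48709 genes in those files. All 10 had enough reads to be tested.

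The libraries were made from microdissected hippocampal CA1 of mice aged 7 months, and poly(A) RNA was sequenced as single-end reads of 50 nt. The study's text, however, calls the tissue of this experiment dorsal hippocampal and describes CA1 microdissection for mice of other ages. How far each piece held CA1 alone is not settled by it. WT control (n = 6) are wild-type littermates given a control oligonucleotide. APP control (n = 6) are APPPS1-21 mice, which carry mutant human APP driven by the neuronal Thy1 promoter, among other changes not described here, and received the control oligonucleotide too. APP anti-miR-mix (n = 7) are APPPS1-21 mice given inhibitors of 3 microRNAs, and are called treated below. Both kinds of oligonucleotide were packed in lipid nanoparticles and delivered into the dorsal hippocampus, so every group had the injection. The titles of the wild-type libraries also carry the words anti-miR-mix, and they were read as controls as the study describes them. The labels do not say whether each library is 1 mouse, nor the sex of the mice, so p-values measure the spread between these libraries.

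The hippocampus is a chain of fields. Granule cells of the dentate gyrus send mossy fibres to CA3, CA3 neurons project to CA1, and CA2 is a narrow field between them. Each field has a stable set of marker genes, and in the mouse CA1 lies over the dentate gyrus and next to CA2, with the thalamus, the choroid plexus of the ventricle and the cortex close by. Markers of the neighbours in a CA1 dissection therefore describe what the piece of tissue held, although in bulk RNA more cells of a field and more RNA per cell cannot be told apart.

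The injected oligonucleotides define the groups and are shown for that reason, 5′ to 3′. Capitals mark the bases that pair with the seed, bases 2 to 8 of the mature microRNA.
miR-181a-5p inhibitor: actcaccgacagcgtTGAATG
miR-146a-5p inhibitor: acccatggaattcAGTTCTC
miR-148a-3p inhibitor: caaagttctgtagTGCACT
negative control: taacacgtctatacgccca
Each inhibitor is the reverse complement of part of its microRNA over its whole length.

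The 19 libraries held 19362343 to 37018917 counted reads. Values are normalized counts, reads divided by a size factor per library, unless RPKM, reads per kilobase of exon scaled to library depth, are named. No 2 libraries of a group agreed within sampling noise. The summed choroid plexus genes were 3.41 times the median of all libraries in WT control 5 and 2.42 times in APP anti-miR-mix 6. The summed dentate gyrus markers were 2.76 times the median in APP control 3 and 2.41 times in APP anti-miR-mix 4. These 4 libraries stood apart. WT control 4 and WT control 5 followed for the dentate gyrus markers at 1.93 and 1.79 times the median, just under the limit of 2 times used here, so leaving out APP control 3 and APP anti-miR-mix 4 alone takes high libraries from the transgenic groups and none from WT control. The differences of Prox1 and Dsp from WT control are therefore given in both ways, without those 2 and without all 4 that were high in the dentate gyrus. Correlations were not recomputed without all 4.

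**Figure D1:**
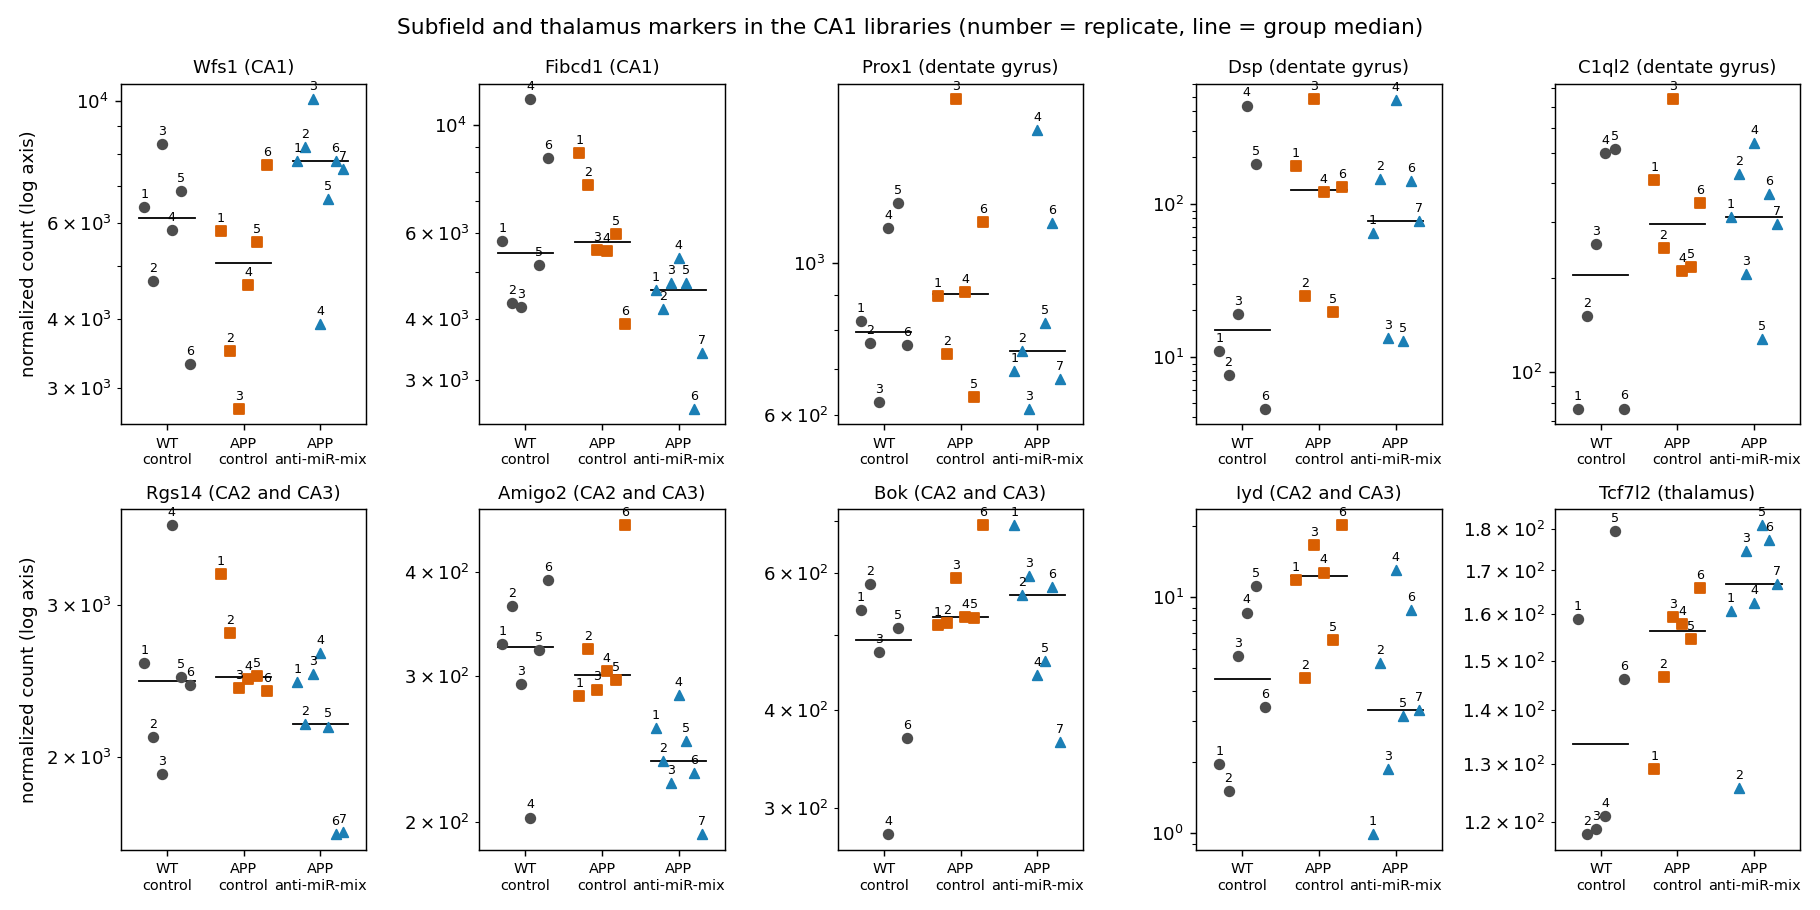
Normalized count of each of the 10 markers (vertical log axis) in each library of the 3 groups (horizontal axis). Points carry the replicate number and lines are group medians. Dsp spans 4.57 to 481.2, while Tcf7l2 stays between 117.9 and 181.1.

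Per length, the markers stood in an order led by CA1. Over the 19 libraries Wfs1 had 56.2 ± 18.4 RPKM (SD, n = 19) and Fibcd1 40.4 ± 14.6, and these neighbours in the order did not differ beyond their spread. Rgs14 followed at 19.7 ± 3.83 RPKM and Bok at 9.68 ± 2.04. C1ql2 had 5.45 ± 2.99, Prox1 3.81 ± 1.31 and Amigo2 3.16 ± 0.696 RPKM, whose spreads overlap. Tcf7l2 at 0.600 ± 0.0852 and Dsp at 0.474 ± 0.565 RPKM were lower still, and Iyd was last at 0.157 ± 0.116. Both CA1 markers of the list were thus present in every library, above each of the other markers among the 10 in mean level per length. That order belongs to the chosen markers, since Dkk3, a CA3 gene of a longer list given below, had 162.1 RPKM.

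The markers also differed in how far libraries of a group spread. Dsp had a within-group SD of 2.07 on the log2 scale, and of the 12765 genes with a mean normalized count of at least 100 none had a larger one. C1ql2 had 0.897, with 38 genes above it. Wfs1 at 0.475, Prox1 at 0.461 and Fibcd1 at 0.446 were each more variable than over 97% of those genes, while the median gene had 0.136. Rgs14 at 0.272, Amigo2 at 0.258 and Bok at 0.309 were lower, and Tcf7l2 at 0.192 was the steadiest member. Iyd, at a mean of 7.40 normalized counts, is below that level and was left out of the ranking.

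Wfs1 (chr5:36966104-36989205, minus strand of GRCm38, the mm10 build) encodes wolframin, a membrane protein of the endoplasmic reticulum, and labels CA1 pyramidal cells. In WT control it ran from 3309 to 8342 with a median of 6119 normalized counts. In APP control the range was 2748 to 7661 with a median of 5073. Treated libraries held 3915 to 10090 with a median of 7774. The 3 ranges overlapped, and 4 of 7 treated libraries were above every APP control library.

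Fibcd1 (chr2:31813290-31846005, minus strand), a membrane receptor that binds acetylated sugars such as chitin, ordered the libraries differently. It ran from 4242 to 11298 in WT control (median 5466). The span was 3904 to 8765 among APP control libraries (median 5766) and 2623 to 5346 among treated ones (median 4583 normalized counts). WT control 4 was highest at 11298, and the lowest library was APP anti-miR-mix 6 at 2623. No positive correlation was seen between the pair that marks CA1: within groups Pearson's r of Wfs1 and Fibcd1 was -0.36 and Spearman's rho -0.34 (permutation p = 0.155 and p = 0.188). Without the 2 libraries farthest from the median of Wfs1, r was -0.35.

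Dsp (chr13:38151294-38198577, plus strand) encodes desmoplakin, which ties desmosomes to intermediate filaments, and in the hippocampus it labels granule cells. It ran from 4.57 to 436.9 in WT control (median 14.9), whereas APP control libraries lay at 19.7 to 481.2 (median 123.1) and the treated at 12.5 to 477.5 (median 77.2 normalized counts). Each group had its own high library, WT control 4 at 436.9, APP control 3 at 481.2 and APP anti-miR-mix 4 at 477.5. In WT control the highest library was 95.6 times the lowest, so the spread within a group was wider than any difference between group medians. A part of 5.17% of its exonic length overlaps Gm10129 on the other strand, and the kit does not mark strand.

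C1ql2 (chr1:120340582-120343174, plus strand), a secreted synaptic protein of mossy fibres, followed the same libraries. It ran from 76.5 to 513.6 in WT control (median 203.3). APP control libraries spanned 209.6 to 739.8 (median 296.6) and treated libraries 127.8 to 537.3 (median 312.3 normalized counts). APP control 3 was highest for Dsp, C1ql2 and Prox1 alike.

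Prox1 (chr1:190118035-190170714, minus strand), the homeobox factor of granule cells that some interneurons also express, had a narrower range. It ran from 627.3 to 1224 in WT control (median 793.4). The span was 638.0 to 1737 among APP control libraries (median 901.7) and 613.3 to 1566 among treated ones (median 743.4 normalized counts). The libraries lowest in Dsp still held Prox1: WT control 6 had 4.57 of Dsp and 758.6 of Prox1.

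Dsp and C1ql2 had the highest Pearson r of all pairs of members (Fibcd1 and Rgs14 had the highest Spearman's rho, 0.88 against 0.86), so the stretch of 250 bases before the RefSeq start of each (GRCm38.p6, plus strand) is shown, with the E-box CANNTG, the letters that basic helix-loop-helix factors bind, in capitals.
Dsp, chr13:38151044-38151293: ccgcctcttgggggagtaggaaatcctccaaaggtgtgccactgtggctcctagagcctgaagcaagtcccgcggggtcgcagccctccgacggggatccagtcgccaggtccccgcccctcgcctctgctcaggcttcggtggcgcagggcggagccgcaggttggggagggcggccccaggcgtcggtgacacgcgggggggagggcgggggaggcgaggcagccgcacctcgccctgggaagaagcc
C1ql2, chr1:120340332-120340581: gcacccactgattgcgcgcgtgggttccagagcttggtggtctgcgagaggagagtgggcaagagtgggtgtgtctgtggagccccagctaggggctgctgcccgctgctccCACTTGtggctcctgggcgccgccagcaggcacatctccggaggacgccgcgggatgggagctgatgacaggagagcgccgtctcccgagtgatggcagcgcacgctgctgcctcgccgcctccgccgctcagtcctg
The motif reads the same on both strands. It stood 0 times in the Dsp window and 1 time in that of C1ql2, and 66.2% of 32851 promoters of this length held it. The GC content was 72.4% for Dsp and 68.8% for C1ql2, against a median of 52.4%.

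A longer list of 8 genes enriched in the dentate gyrus was read beside the members. Over the 19 libraries, after centring within groups, 6 of the 8 had a Pearson r above 0.5 with the mean log2 level of the 3 members, and the list's median r was 0.77. Tdo2, a tryptophan-degrading enzyme, had 0.84 and Plk5, a polo-like kinase family member, 0.83. Lct had 0.46, and Sema5b had -0.20. Their sum stood at 1.31 to 1.42 times the median in WT control 4, WT control 5, APP control 3 and APP anti-miR-mix 4, and at 0.90 to 1.13 times in the other 15. Stxbp6 was the most abundant of the list at 8.75 RPKM.

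Rgs14 (chr13:55369732-55384687, plus strand), a regulator of G-protein signalling that restrains plasticity in CA2 and is also made in adult CA1, was the most abundant of the CA2 and CA3 markers. It ran from 1909 to 3718 in WT control (median 2450), whereas APP control libraries lay at 2383 to 3262 (median 2473) and the treated at 1625 to 2636 (median 2185 normalized counts). WT control 4 was highest, as for Fibcd1, and APP anti-miR-mix 6 and 7 were lowest.

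Amigo2 (chr15:97244125-97247287, minus strand), an adhesion molecule of CA2 and CA3 neurons, ran from 202.6 to 390.7 in WT control with a median of 324.8 normalized counts. In APP control it ran from 283.7 to 455.3 with a median of 300.1, and treated libraries held 193.4 to 284.1 with a median of 237.0. None of the 7 treated libraries reached the median of either control group, and 6 of them were below every APP control library. The ranges still overlapped, because WT control 4 had 202.6 and APP control 1 had 283.7. Amigo2 shares 1.83% of its exonic length with Pced1b on the other strand.

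Bok (chr1:93685660-93695764, plus strand), a Bcl-2 family member found in CA3, ran from 277.3 to 581.8 in WT control (median 492.4). APP control libraries spanned 515.2 to 692.5 (median 527.0) and treated libraries 364.4 to 692.0 (median 563.0 normalized counts). WT control 4, high for Dsp, Fibcd1 and Rgs14, was the lowest library for Bok.

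Iyd (chr10:3540240-3554877, plus strand), the iodotyrosine deiodinase, was at the edge of detection, with 22 reads at most in a library. It ran from 1.51 to 11.1 in WT control (median 4.51). The span was 4.55 to 20.2 among APP control libraries (median 12.2) and 0.991 to 12.96 among treated ones (median 3.32 normalized counts). Of the 6 APP control libraries 4 were above every WT control library.

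APP control 6 was the highest of the 19 libraries for Amigo2 at 455.3, Bok at 692.5 and Iyd at 20.2 normalized counts, that is 3 of the 4 CA2 and CA3 markers. It was also highest for 3 of the 6 further CA2 genes, which are named here after their values were seen. Avpr1b, the vasopressin receptor of CA2, had 14.7 normalized counts there and at most 3.70 in a WT control and 1.98 in a treated library. Cacng5 had 420.5 against a median of 296.8 over all libraries, and Map3k15 had 76.9 against 48.6. Avpr1b was below the count filter and was not tested. Rgs14, the remaining marker of the 4, was lowest of its group in APP control 6, at 2383 normalized counts. The summed further CA2 genes were 1.14 times the median there, and higher in other libraries, up to 1.43 times in APP anti-miR-mix 7.

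Tcf7l2 (chr19:55741820-55933654, plus strand), the Wnt pathway factor that marks thalamic neurons and is also made in glia, ran from 117.9 to 179.5 in WT control with a median of 133.6 normalized counts. In APP control it ran from 129.1 to 165.8 with a median of 156.3, and treated libraries held 125.8 to 181.1 with a median of 166.8. WT control 5, one of the libraries high in choroid plexus genes, was the highest of its group, and APP anti-miR-mix 6, the other, had 177.4. The summed 9 further thalamus genes ranged over 3541 to 5294 in WT control, 4015 to 5097 in APP control and 4614 to 5545 in treated mice, and none of the 19 libraries reached 1.5 times the median. Slc17a6, the vesicular glutamate transporter of thalamic neurons, was the most abundant of them at 11.03 RPKM.

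How the members moved with each other was asked of all 45 pairs, over 19 libraries, on log2 values centred within each group, with permutation of libraries within groups. Adjusted over the 45 pairs, 7 passed for Pearson's r, all positive. Of these, 6 were between a pair of Dsp, C1ql2, Prox1 and Iyd. Dsp and C1ql2 had r = 0.89 and rho = 0.86 (permutation p = 1e-05, the smallest the permutations can give, adjusted p = 0.00045, and p = 5e-05, adjusted p = 0.00112). Inside the groups r was 0.90 for WT control, 0.82 for APP control and 0.95 for treated libraries, and it was 0.88 without WT control 2 and WT control 6, the farthest from the median of Dsp.

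Iyd moved with the dentate markers. Its r was 0.79 with Dsp, 0.77 with Prox1 and 0.68 with C1ql2 (permutation, adjusted p = 0.00306, 0.00293 and 0.026), and rho was 0.78, 0.68 and 0.70 (permutation, adjusted p = 0.0081, 0.0268 and 0.0259). Without the 2 libraries farthest from the median of the other gene, r stayed at 0.78, 0.75 and 0.68. With Bok, the other CA3 marker, its r was -0.26 (permutation p = 0.332, rho = -0.24, p = 0.368) and with Amigo2 -0.07 (permutation p = 0.802, rho = -0.09, p = 0.718). The difference between these correlations was not tested.

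Prox1 had r = 0.77 with Dsp and 0.62 with C1ql2 (permutation, adjusted p = 0.00293 and 0.0328). The rho of Prox1 and Dsp was 0.66 (permutation, adjusted p = 0.0268), and that of Prox1 and C1ql2 was 0.45, which did not pass (permutation, adjusted p = 0.307). Without APP control 3 and APP anti-miR-mix 4, the r of Prox1 and C1ql2 was 0.485 and that of Prox1 and Dsp 0.71, so the former rests in part on these 2 libraries.

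The remaining pair joined a CA1 and a CA2 marker. Fibcd1 and Rgs14 had r = 0.87 and rho = 0.88 (permutation p = 2e-05, adjusted p = 0.00045 and 0.0009), with 0.87, 0.87 and 0.93 within the 3 groups and 0.75 without WT control 4 and APP anti-miR-mix 6. Rgs14 and Amigo2, both markers of CA2, had r = -0.23 and rho = -0.04 (permutation p = 0.381 and p = 0.874), with opposite signs in WT control (-0.71) and APP anti-miR-mix (0.72). For the 7 pairs, centring also by the number found in the authors' adjusted table, an alternative chosen after seeing the data, left r between 0.64 and 0.93.

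**Figure D2:**
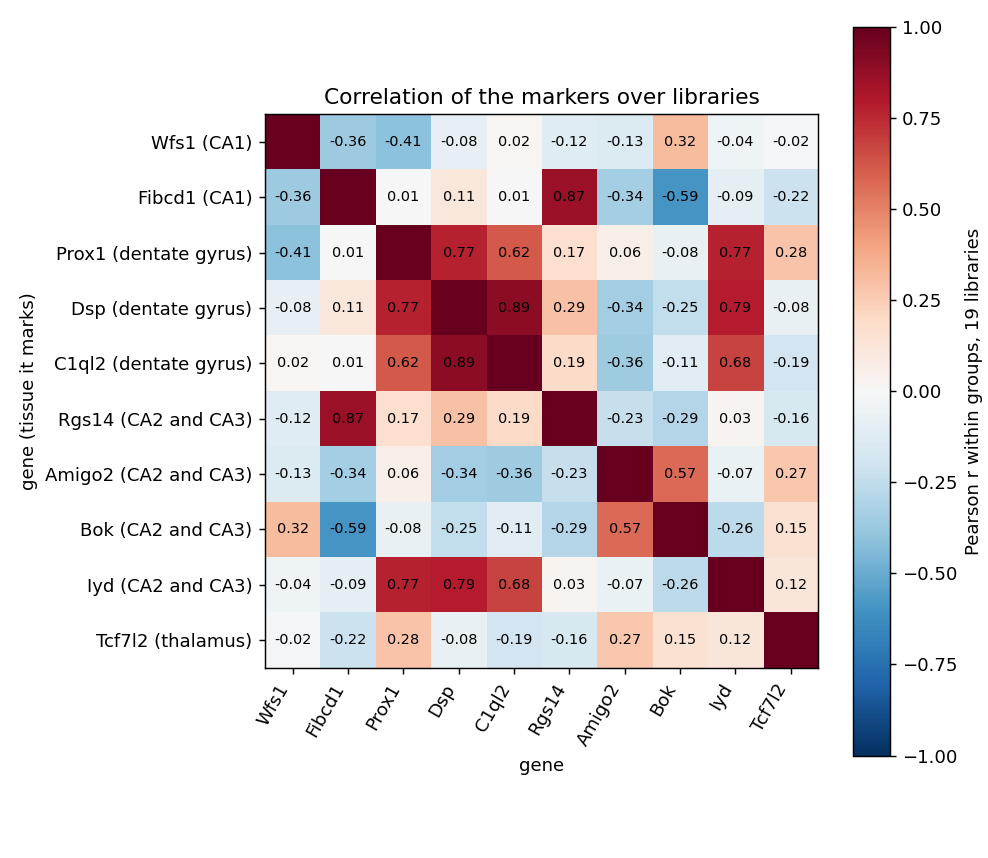
Pearson r of each pair of the 10 markers over 19 libraries after centring within groups, from blue (-1) to red (1). Dsp, C1ql2, Prox1 and Iyd form a block of r from 0.62 to 0.89, and Fibcd1 with Rgs14 stands at 0.87 outside it.

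**Figure D3:**
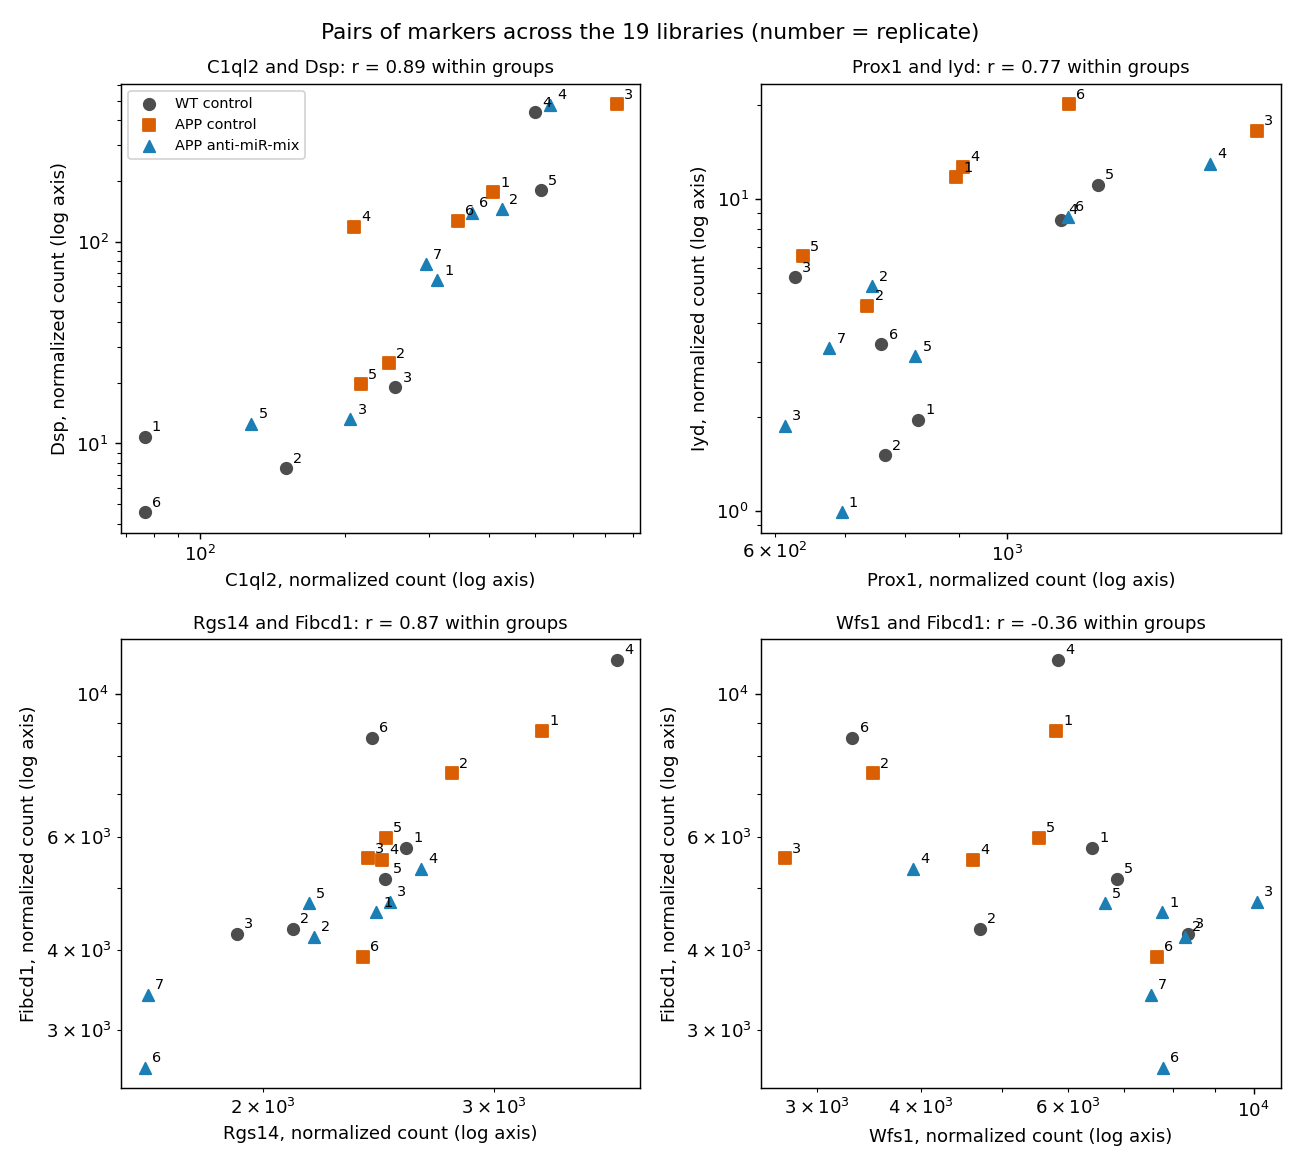
Normalized counts of 4 pairs of markers in the 19 libraries, both axes on a log scale, symbols by group and numbers by replicate. C1ql2 and Dsp, Prox1 and Iyd, and Rgs14 and Fibcd1 rise together, while Wfs1 and Fibcd1 do not (r = -0.36).

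The first comparison asks what the transgenes change in CA1. Set against WT control, 908 of 19297 genes passed the threshold of an adjusted p of 0.05 in DESeq2 in APP control, which is 4.71%, and 0 of the 10 markers did. No marker had an unadjusted p under 0.05 except Iyd, for which DESeq2 gave no adjusted p at its low count, with a log2 difference of 1.12 (95% interval 0.06 to 2.19). edgeR called 0 markers as well. The intervals show what could have been missed. For Rgs14 the log2 difference was 0.05 (95% interval -0.24 to 0.34), for Amigo2 0.04 (-0.24 to 0.33), for Tcf7l2 0.11 (-0.12 to 0.34) and for Wfs1 -0.25 (-0.71 to 0.21). Fibcd1 had -0.08 (-0.59 to 0.43), Bok 0.30 (-0.03 to 0.62), Prox1 0.19 (-0.35 to 0.72) and C1ql2 0.46 (-0.50 to 1.43). For Dsp the interval ran from -1.52 to 2.56, the widest of the 10. The median over the 10 was 0.15, against -0.01 for all genes tested, with 8 of the 10 above 0. The dentate values turned with the libraries kept. Without APP control 3 and APP anti-miR-mix 4, Prox1 and Dsp had -0.04 and -0.24. Without WT control 4 alone Dsp had 1.83. A further fit left out WT control 4, WT control 5, APP control 3 and APP anti-miR-mix 4, the libraries whose 8 further dentate genes summed to at least 1.2 times the median, a limit set after the sums were seen so as to take in the 2 WT control libraries. In it Dsp had 3.15 (adjusted p = 0.0075 in DESeq2), C1ql2 1.03 (0.197) and Prox1 0.22 (0.79), and 552 genes were called. The libraries left out include the highest one for Dsp in each group, so this call depends on the choice of libraries. They were chosen by genes that move with the dentate markers, which narrows the spread of Dsp within groups. Its adjusted p in that fit therefore cannot be read as a test, and over all 19 Dsp did not pass.

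The second comparison asks what the inhibitors change in APPPS1-21 mice. With the treated set against APP control, no gene passed in DESeq2 (0% of 19297) or edgeR, with 552 genes at an unadjusted p under 0.05 in DESeq2. Among the markers 4 were below that p and had an adjusted p of 1 in DESeq2. Amigo2 had a log2 difference of -0.44 (SE 0.14), Wfs1 0.58 (SE 0.23), Fibcd1 -0.55 (SE 0.25) and Iyd -1.24 (SE 0.52). The CA1 markers thus had values of opposite sign. The other 6 lay between -0.28 for Rgs14 and 0.11 for Tcf7l2, and the median over the 10 was -0.21, against -0.00147 for all genes. Without APP control 3 and APP anti-miR-mix 4 the 3 dentate markers had -0.15 for Prox1, -0.31 for Dsp and 0.02 for C1ql2.

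The third comparison sets treated transgenic mice against wild type. Here 1727 genes were called by DESeq2, 8.95% of those tested, and 1 of the 10 markers did. Genes called lower made up 3.36%. Amigo2 fell by 0.40 on the log2 scale (SE 0.14, adjusted p = 0.0456 in DESeq2), from a mean of 316.8 ± 65.5 (SD, n = 6) to 239.4 ± 29.0 (n = 7) normalized counts, with all 7 treated libraries below the WT control median. This call lay at the threshold. It was not made with edgeR (adjusted p = 0.0992) nor with replicate numbers as a block (log2 difference -0.33, adjusted p = 0.0957 in DESeq2). The block fit also left out APP anti-miR-mix 7, the lowest library for Amigo2 (193.4). Without that library and with no block, the log2 difference was -0.35 (adjusted p = 0.107 in DESeq2). Of the 19 DESeq2 fits that left out 1 library the call held in 5, those without WT control 4, APP control 1, APP control 5, APP control 6 and APP anti-miR-mix 4, with adjusted p from 0.00168 to 0.182 over the 19. Leaving out WT control 5 and APP anti-miR-mix 6, the libraries high in choroid plexus genes, the adjusted p in DESeq2 was 0.147. It was 0.035 without APP control 3 and APP anti-miR-mix 4, and 0.00206 without all 4 libraries high in the dentate gyrus. WT control 4 was the lowest WT control library for Amigo2 (202.6) and APP anti-miR-mix 4 the highest treated one (284.1). Leaving them out widens the difference by itself, so the smaller adjusted p is no stronger evidence.

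Fibcd1 had -0.63 (SE 0.25, adjusted p = 0.0984 in DESeq2). Of the fits that left out 1 library, it passed without WT control 2 (adjusted p = 0.0229), WT control 3 (0.0186) or APP control 1 (0.0405), and in no other. Without WT control 4, its highest library, Fibcd1 had -0.41 (adjusted p = 0.279 in DESeq2), and without WT control 6 -0.54 (0.291). Wfs1 had 0.33 (SE 0.23) and Tcf7l2 0.22 (SE 0.11, adjusted p = 0.239 in DESeq2). The dentate markers had 0.01 for Prox1, 0.27 for Dsp and 0.31 for C1ql2, Rgs14 had -0.22, Bok 0.21 and Iyd -0.11. Without APP control 3 and APP anti-miR-mix 4, Prox1 and Dsp had -0.18 and -0.55, without WT control 4 alone Dsp had 1.57, and without all 4 libraries high in the dentate gyrus Prox1 had 0.07, C1ql2 1.05 and Dsp 2.84, the last with an adjusted p of 0.0127 in DESeq2. The sign and the call of Dsp thus depended on which libraries were kept. As in the first comparison, its adjusted p without those 4 libraries cannot be read as a test. The median over the 10 was 0.11, against -0.02 for all genes tested. The 3 comparisons share their control libraries in pairs, so their values are not independent of each other.

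**Figure D4:**
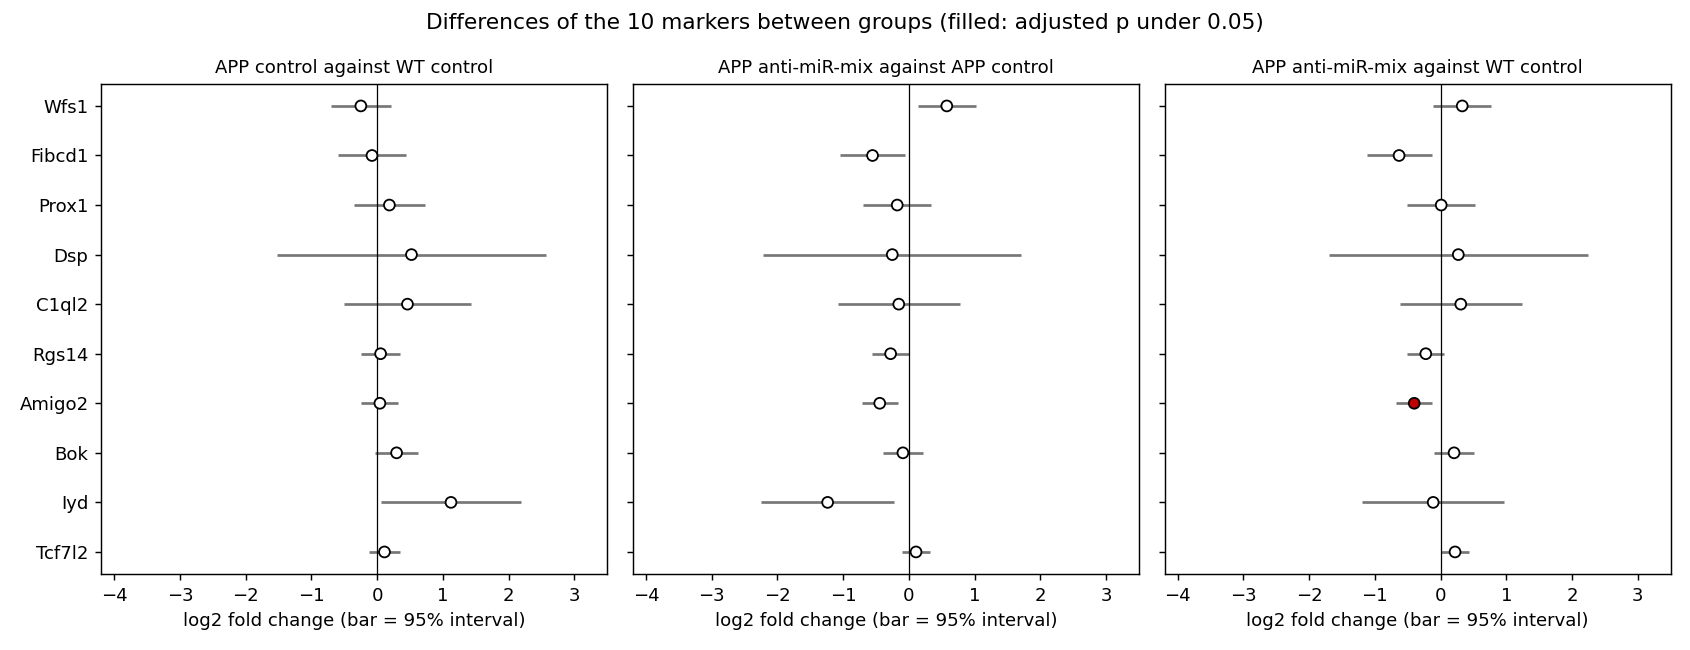
Log2 fold change of the 10 markers (horizontal axis) with 95% intervals, 1 panel for each comparison. The filled point, Amigo2 in APP anti-miR-mix against WT control (-0.40), is the sole one with an adjusted p under 0.05, and the bars of Dsp are the widest.

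Genes of the same fields from the longer lists gave few calls. Between APP control and WT control none of the 5 further CA1, 8 dentate gyrus, 5 tested CA2 or 6 CA3 genes passed. Of the 9 further thalamus genes, Prkcd, a protein kinase C of thalamic neurons that other cells make too, rose by 0.62 on the log2 scale (SE 0.11, adjusted p = 8.67e-07 in DESeq2), and Fn1 of the 3 subiculum genes fell by 0.28 (adjusted p = 0.00807 in DESeq2). In the same comparison 5 of 7 microglia genes rose, among them C1qa by 1.30, as did Gfap of the 6 astrocyte genes by 1.44 and Flt1 and Cdh5 of the 5 endothelial genes, while Gad1 and Gad2 of the 6 interneuron genes fell by 0.30 and 0.26 (DESeq2). None of the 10 pan-neuronal or 5 excitatory neuron genes passed, and their medians were -0.10 and -0.03.

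In treated against APP control mice none of the genes in the lists passed. In treated against WT control mice, Spink8 of the 5 further CA1 genes fell by 0.58 and Pcp4 of the 5 tested CA2 genes rose by 0.52 (adjusted p = 0.0367 and 0.0274 in DESeq2). None of the 8 dentate gyrus or 6 CA3 genes passed. Of the 9 thalamus genes 3 rose, Prkcd by 0.60, Lef1 by 0.77 and Zic1 by 0.81 (adjusted p = 6.02e-07, 0.00131 and 0.00492 in DESeq2), and the list's median was 0.21. Lef1, a Wnt pathway factor, and Zic1, a zinc-finger factor, are also made outside the thalamus. Chrna3 of the 5 habenula genes fell by 0.77 and Pde10a of the 5 striatum genes by 0.24. Beside these, 6 of 7 microglia genes rose, as did Gfap of the 6 astrocyte genes by 1.40 and Flt1 and Cdh5 of the 5 endothelial genes by 0.40 and 0.49, while Gad1 and Sst of the 6 interneuron genes fell by 0.23 and 0.44 (DESeq2). The part of these cell types in the values of the thalamus genes was not tested. Spink8, Pde10a and the microglia gene Tmem119 are outside the limit of 15 set for named genes and were named after their values were seen.

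For orientation, the most abundant gene per length of each list was Mpped1 among the further CA1 genes (93.7 RPKM), Necab2 for CA2 (31.9), Dkk3 for CA3 (162.1), Ccn3 for ventral CA1 (94.1), Nts for the subiculum (14.7), Tbr1 for the cortex (10.8), Pde10a for the striatum (7.00), Ttr for the choroid plexus (5.57) and Tac2 for the habenula (3.76). Among cell types these were Nrgn (561.4 RPKM), Mbp (406.9), Gfap (330.5), Sst (308.4), Snap25 (294.3), C1qa (149.6) and Cldn5 (13.2). Ttr ran from 22.7 to 1443 normalized counts between libraries.

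Ratios within a library do not depend on its scaling, apart from the 1 added to each normalized count before log2. That touches genes at low counts, such as Iyd and, in some libraries, Dsp. The mean log2 level of the dentate markers minus that of the CA1 markers was -5.08 ± 1.16 (SD) over the 6 WT control libraries, -4.11 ± 1.09 over the 6 of APP control and -4.38 ± 1.13 over the 7 treated. Group means differed by up to 0.97, within 1 SD of the libraries. With the longer dentate and CA1 lists they were -3.22 ± 0.42, -2.95 ± 0.38 and -2.89 ± 0.39. For the CA2 and CA3 markers the ratio was -4.83 ± 0.28, -4.29 ± 0.38 and -4.83 ± 0.42, so that APP control stood 0.54 above WT control and the treated group -0.55 away from APP control. Both differences were more than 1 SD of the libraries of either group compared. Iyd, at the edge of detection, is 1 of the 4 genes averaged. Its log2 differences in DESeq2, 1.12 and -1.24, were the largest in size of the 4. With the longer lists the ratio differed by 0.22 and 0.11, the latter of the opposite sign. For Tcf7l2 the ratio was -5.40 ± 0.38, -5.12 ± 0.38 and -5.05 ± 0.31, the treated group 0.35 above WT control. With the longer thalamus and CA1 lists it was -3.30 ± 0.35, -3.05 ± 0.23 and -2.73 ± 0.32, the treated group 0.57 above WT control, more than 1 SD of the libraries of either group. Both lists enter this ratio: in that comparison the further CA1 genes had a median log2 difference of -0.262 and the further thalamus genes 0.215. The summed further thalamus genes had a median of 4983 in treated and 5088 in WT control libraries. No test was made of these ratios, since they are scores over chosen genes.

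The genes whose pattern over the 19 libraries was most like each set of markers were found by Pearson's r after centring within groups, among the genes with a mean normalized count of at least 100. For the dentate markers they were Smoc2, a secreted matrix protein (r = 0.92), Sema5a, a semaphorin (0.88), Plk5 (0.83), Vwa3a (0.83) and Glis3, a zinc-finger factor (0.81), of which Plk5 and Glis3 were in the longer dentate list. For the CA1 pair they were Sorcs3, a sorting receptor (0.92), Lamb1, a laminin chain (0.83), Nell2 (0.82), Dlgap2, a postsynaptic scaffold (0.81), and Htr2a, a serotonin receptor (0.80), none of them in the longer CA1 list. That list had a median r of 0.25 with the pair, and Mpped1 was highest at 0.65.

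For the CA2 and CA3 markers the nearest genes were Btbd3 (r = 0.85), Ccbe1 (0.83), Prox1 (0.77), Il16 (0.76) and Dock10 (0.76). The longer CA2 list had a median r of -0.03 and the CA3 list of 0.28 with these 4 markers, while the longer dentate list had 0.53. Iyd, with the widest log2 spread of the 4 (0.888), weighs most in their mean.

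For Tcf7l2 the nearest genes were Soat1 (r = 0.89), Tmem123 (0.89), Wwtr1 (0.88), Ctnnd1 (0.87) and Gna13 (0.87), and 36 genes were above 0.8. The 9 further thalamus genes had r from -0.48 to 0.62 with it and a median of 0.32. Of the 6 astrocyte genes 4 were above 0.5, with a median of 0.62, the endothelial genes had 0.35 and the pan-neuronal genes -0.42. Without the 2 libraries high in choroid plexus genes, 1 of the 5 nearest genes remained among the first 5, against 3 of 5 for the dentate markers and 4 of 5 for the CA1 pair and for the CA2 and CA3 markers. These likenesses share library, depth and tissue piece, and they are given as a description.

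**Figure D5:**
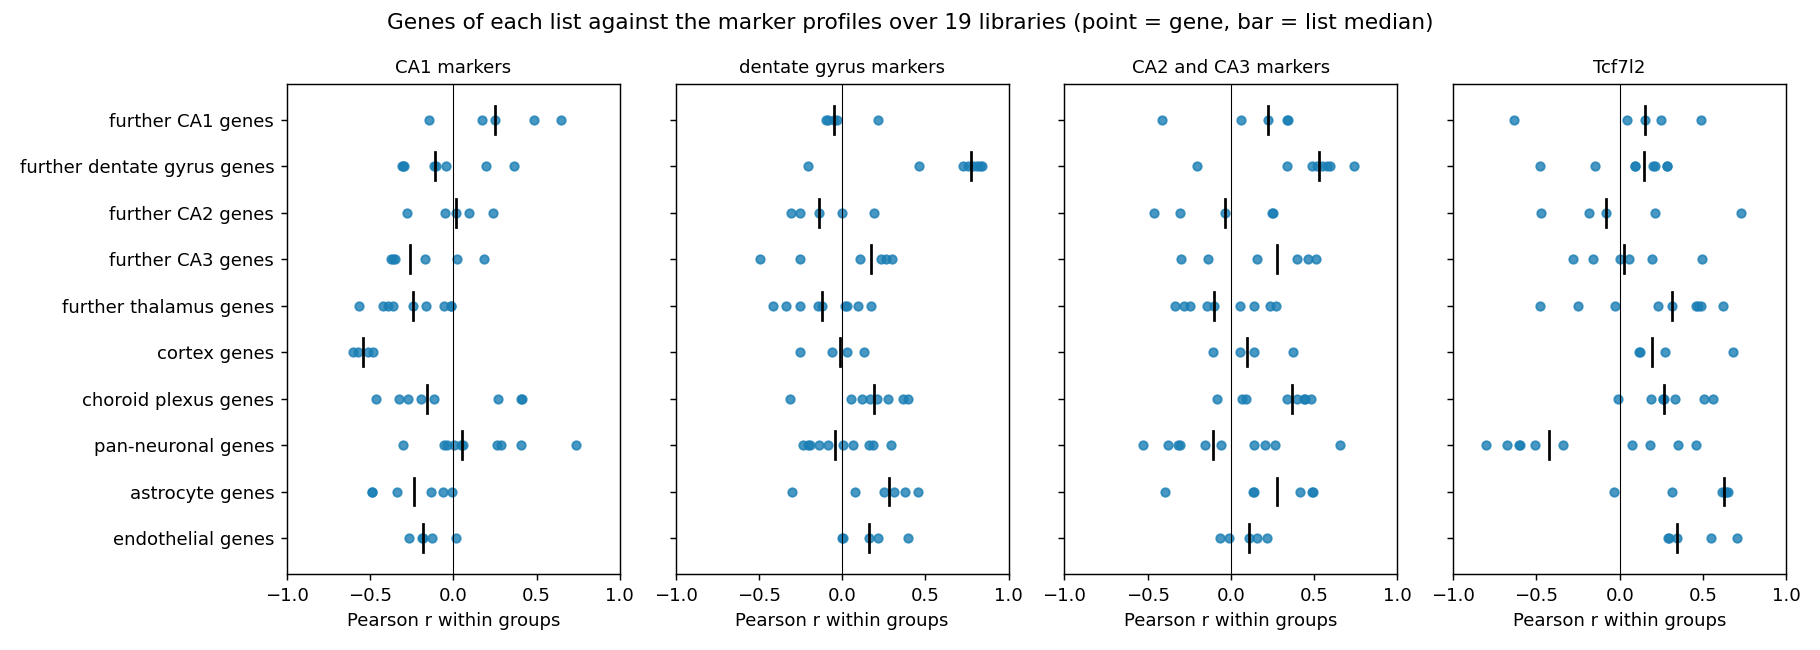
Pearson r over 19 libraries, centred within groups, of each gene of 10 lists (rows, 1 point a gene, bar at the median) with the mean log2 level of the CA1, dentate gyrus, and CA2 and CA3 markers and with Tcf7l2 (panels). The longer dentate list has a median of 0.77 with the dentate markers, and the astrocyte list has 0.62 with Tcf7l2.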

How the data were processed

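RNA of 19 CA1 samples was sequenced, and per the labels reads were checked with FastQC 0.11.5, aligned with STAR 2.5.2b to mm10 and counted per gene with featureCounts of Subread 1.5.1; the authors deposited raw counts for each sample. A second deposited table holds log2 values for 18825 genes, from which the authors had removed a component that follows 1 whole number per library, 1 to 5, called the adjustment number here; its meaning is not given in the sources used here.

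The count files hold 48709 genes, of which 14228 had no read. Genes reaching 5 counts in 50% of the libraries or more (19297) were tested with DESeq2 1.42.0, the tool the study names. All 19 libraries and 3 groups were in 1 fit. Benjamini-Hochberg adjustment ran over the genes for which DESeq2 gives an adjusted p. It gave none for 1136 genes in each comparison with WT control and for 13 in treated against APP control. Shares of genes called are of all 19297. edgeR 4.0.16 (quasi-likelihood) and limma 3.58.1 on the deposited log2 table were alternatives. DESeq2 size factors gave normalized counts, and RPKM used exonic lengths of GENCODE M21. Correlations used log2(normalized count + 1) and 100000 permutations. The tests were checked on simulated counts. Promoters and microRNAs came from RefSeq (GRCm38.p6), which held 9 of the 10 members, and oligonucleotides from the study's supplement.

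Named were all members, list genes past the threshold (up to 15 per comparison, by adjusted p), the most abundant gene of each list, the 5 genes most like each profile, and libraries that stood apart. The members and lists were chosen with earlier results of these data known. Replicate numbers entered an alternative fit as a block, while the main fit used group alone. Deviations of same-numbered libraries of APP anti-miR-mix and WT control correlated at 0.15 to 0.57 in all 6 pairs, a hint of pairing from the data and not from the labels. In 4 of the 6, however, a library of another number correlated more highly (up to 0.707). For the other comparisons some same-numbered correlations were below 0.1.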

Additional observations from a re-analysis of the deposited data

Results flagged for a closer look

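In 30 sets (10 markers in 3 groups), Dixon's criterion for a single library far from its group was met 5 times. The criterion was applied to normalized counts without log2, a scale on which high values stand out more. Chance gives about 1.5 if values are normally distributed, which was not shown here, so the 5 are not read as an excess. Dsp was far above the rest in APP control 3, at 481.2 normalized counts against 19.7 to 176.0 in the other 5 libraries of that group. The same gene stood out in APP anti-miR-mix 4, at 477.5 against 12.5 to 144.7 in the other 6. C1ql2 and Prox1 were highest of their group in both of these libraries. Rgs14 was high in WT control 4, at 3718 against 1909 to 2569, and this library was also the highest of all 19 for Fibcd1, the lowest of all for Bok and the lowest of its group for Amigo2. Amigo2 was high in APP control 6, at 455.3 against 283.7 to 323.0, where Avpr1b, Cacng5 and Map3k15 of the further CA2 genes were highest too. Rgs14 was lowest of its group in that library. Tcf7l2 was low in APP anti-miR-mix 2, at 125.8 against 160.6 to 181.1. The causes were not tested.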

How the results depend on the processing

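Each of the 30 marker differences was recomputed in 11 other ways, and 305 of these 330 values had the sign and the side of the threshold reported. The call of Amigo2 in treated against WT control was lost in 7 of the 11, namely edgeR, DESeq2 with TMM size factors or with size factors from neuronal genes, the replicate block, the adjustment number as a factor, limma on the deposited table, and without the libraries high in choroid plexus genes, so that 0 markers were called there, and its adjusted p ran from 0.00168 to 0.203 over all 30 alternatives. The replicate block, fitted without APP anti-miR-mix 7, changed no other marker's call. In that fit 1228, 1 and 2221 genes were called in the 3 comparisons. With only the 2 groups of a comparison in the fit, 3 genes were called between treated and APP control. edgeR called 621 and 1169 genes in the comparisons with WT control. Replicate numbers were not shown to pair the libraries in any comparison. Correlations of same-numbered libraries went down to 0.00716 in APP control against WT control, -0.0819 in treated against APP control and 0.15 in treated against WT control.

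Some signs turned. With the adjustment number as a factor Fibcd1 and Prox1 had 0.0562 and -0.0191 in APP control against WT control, Dsp had 0.24 in treated against APP control and Prox1 -0.14 in treated against WT control. With limma on the deposited table Fibcd1 had 0.00702 in the first comparison and Iyd 0.000881 in the third, where Iyd had 0.0517 without the libraries high in choroid plexus genes. Without APP control 3 and APP anti-miR-mix 4, an alternative chosen after seeing the data, Prox1 and Dsp had -0.0386 and -0.24 in the first comparison, C1ql2 0.0195 in the second, and Prox1 and Dsp -0.18 and -0.55 in the third. Without WT control 4, WT control 5, APP control 3 and APP anti-miR-mix 4, also chosen after seeing the data, 552, 7 and 886 genes and 1, 0 and 2 markers were called in the 3 comparisons, Dsp passing in both with WT control. These libraries include the highest one for Dsp in each group, so its calls in this fit cannot be read as a test. In the same fit Fibcd1 and Amigo2 had 0.148 and -0.0467 in the first comparison, C1ql2 0.0197 in the second and Iyd 0.283 in the third. With the longer lists the CA2 and CA3 to CA1 ratio differed by 0.11 between treated and APP control. The cause was not tested.

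Leaving out 1 library at a time gave, in APP control against WT control, -0.20 to 0.15 for Fibcd1, -0.0378 to 0.30 for Prox1, -0.24 to 1.83 for Dsp, -0.0179 to 0.20 for Rgs14 and -0.0782 to 0.11 for Amigo2. In treated against APP control it gave -0.37 to 0.0473 for Prox1, -1.07 to 0.51 for Dsp, -0.32 to 0.19 for C1ql2 and 0 to 4 genes called. In treated against WT control it gave -0.18 to 0.12 for Prox1, -0.55 to 1.57 for Dsp, -0.53 to 0.23 for Iyd and 0 to 2 markers called. The extremes of Dsp came without WT control 4, APP control 3 or APP anti-miR-mix 4. Depth limits Iyd, with at most 22 reads a library.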
